A study of Mus musculus with 5 samples.

Results

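Chpf, Tmem198 and Obsl1 are neighbouring genes on mouse chromosome 1 that share a Pol II peak. They were selected because Pol II at that peak was lower in Setd2-deficient Treg cells, so their KO values describe a choice already made and carry no test. Every merged peak with its midpoint in one of the 3 gene bodies, or within 3 kb upstream of it, was taken. This gave 2 of the 56615 peaks, and 3 of the 12947 genes that had a peak.

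RNA polymerase II (Pol II) was profiled by CUT&Tag, in which a transposase tethered to an antibody cuts the DNA next to the bound protein. Treg cells were sorted by Foxp3-YFP from the spleens of 8-week-old C57BL/6 mice of pooled sex, and each library was made from 80000 nuclei. Both genotypes carried the Foxp3-driven Cre-YFP, so deletion was limited to cells that express Foxp3. Ctrl mice were Foxp3CreSetd2flox/+, and therefore kept 1 Setd2 allele that Cre cannot delete, whereas KO mice were Foxp3CreSetd2flox/flox. All mice received IL-2c (1 µg IL-2 bound to 5 µg anti-IL-2, which expands Treg cells) for 3 days and were killed 48 h after that. There were 2 Ctrl and 2 KO libraries, and the methods describe cells of 2 mice as pooled before sorting. The methods count 80000 nuclei as 1 biological replicate. Neither they nor the labels say whether each library came from its own mice, so the spread between libraries may be technical. Total counts in peaks were 11331274 and 5624680 in Ctrl 1 and Ctrl 2, and 13351007 and 4489646 in KO 1 and KO 2, so the libraries numbered 2 carried the larger counting error. The 9 Treg markers that had been listed, Foxp3 and Il2ra among them, all had peaks, with summed normalized counts of 28421 to 34220 per library. Of 19 markers of B, CD8 T, myeloid, NK and erythroid cells 4 had a peak. These were Cd79a and Cd79b of B, Cd14 of myeloid and Klf1 of erythroid cells, whereas Ms4a1, Cd8a, Lyz2 and Ncr1 were among those without one. The summed counts were 88.6 to 138 for B, 41.3 to 118 for myeloid and 189 to 224 for erythroid markers, and overlapped between the genotypes. Setd2 had 9 peaks with normalized counts of 512, 518, 455 and 570 in Ctrl 1, Ctrl 2, KO 1 and KO 2. Those Setd2 values overlapped between the genotypes, and Pol II over a gene does not report on an allele cut by Cre.

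Genes that start back to back on opposite strands often share a CpG-rich promoter region, from which Pol II sets out in both directions. Chpf encodes chondroitin polymerizing factor, which works with the chondroitin synthases to lengthen chondroitin sulfate chains in the Golgi. Tmem198 encodes a multi-pass membrane protein of the Wnt pathway, which helps casein kinases phosphorylate the co-receptor Lrp6. Obsl1 encodes obscurin-like 1, a cytoskeletal adaptor that joins Cul7 and Ccdc8 in the 3M complex.

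Chpf (ENSMUSG00000032997.16) lies on the minus strand at chr1:75474569-75479307 of GRCm38 (mm10) in the GENCODE annotation. Tmem198 (ENSMUSG00000051703.14) lies on the plus strand at chr1:75479532-75485705. Obsl1 (ENSMUSG00000026211.17) lies on the minus strand at chr1:75479310-75506452 and overlaps the whole of Tmem198. The starts of Chpf and Tmem198 were 225 bp apart in GENCODE, and 60 bases lay between them in RefSeq. Obsl1, in contrast, starts at the far end of the locus, 27.0 kb from the midpoint of the shared peak.

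The stretch between the RefSeq starts of Chpf and Tmem198 is shown because the shared peak spans it. Capitals mark the palindrome TGACGTCA, a cyclic AMP response element whose core TGACGTC reads on both strands, and 1 GC box, GGGCGG on the minus strand and so printed as CCGCCC:
between the starts, GRCm38, plus strand, chr1:75479472-75479531: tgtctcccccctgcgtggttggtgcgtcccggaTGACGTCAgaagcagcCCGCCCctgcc
The second copy of the palindrome lay 18 bases inside the first exon of Tmem198, and is shown with its flanks:
in the first exon of Tmem198, GRCm38, plus strand, chr1:75479541-75479565: caccctgagTGACGTCAggagcaga
A match to the ETS-type motif CCGGAAG lay 115 bases upstream of the Tmem198 start, inside the RefSeq body of Chpf:
ETS-type match, GRCm38, plus strand, chr1:75479408-75479432: gaaggacccCCGGAAGtgccccctc

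Motifs were searched on both strands in the RefSeq windows of 300 bases around 32851 starts (250 upstream, 50 downstream, GRCm38). TGACGTC was found in 3.21% of the windows, and 2 or more sites in 0.128%. The Chpf and Tmem198 windows each held 2 sites, but they overlap and hold the same bases. GGGCGG, found in 35.7% of windows, matched 2 times in the Chpf window, 3 times in the Tmem198 window and 8 times in the shared peak. CCGGAAG, found in 8.86% of windows, matched once in the Tmem198 window. TATAAA (13.6% of windows), GCATGCG (3.58%) and CACGTG (7.15%) had no match in any of the 3 windows or in the shared peak. The windows of Chpf and Tmem198 had GC contents of 71.7% and 70.7%, against a median of 52.7% over all windows. Their observed over expected CpG ratios were 0.675 and 0.696, against a median of 0.384. These matches are letters in a window and say nothing of which factors were bound.

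The Obsl1 promoter is printed next because it is the contrasting case, with no Pol II peak. Capitals mark ATTGG, the reverse complement of CCAAT, a motif found in 37.4% of windows:
upstream of Obsl1, GRCm38, minus strand, chr1:75506487-75506702: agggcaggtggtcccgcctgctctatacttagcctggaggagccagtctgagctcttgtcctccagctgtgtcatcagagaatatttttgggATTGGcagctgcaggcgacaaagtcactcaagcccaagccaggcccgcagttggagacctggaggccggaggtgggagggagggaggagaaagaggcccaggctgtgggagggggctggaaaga
The Obsl1 window had 8 CpG dinucleotides, a GC content of 62.0% and a CpG ratio of 0.288, compared with 26 CpG dinucleotides in each of the Chpf and Tmem198 windows. It held no TGACGTC and no GGGCGG.

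The shared promoter peak, at chr1:75478922-75479898, was 977 bp long. It covered 386 bp of Chpf exon, of which 184 bp were coding, and 367 bp of Tmem198 exon, none of it coding. Its GC content of 72.8% was at the 99.8 percentile of all peaks, and its CpG ratio of 0.758 at the 93.4 percentile. The Chpf exon peak, at chr1:75477320-75477799, was 480 bp long and lay entirely within a coding exon of Chpf. Its midpoint was 1.75 kb downstream of the Chpf start, and 1122 bp separated it from the shared peak. It also fell within the 3 kb upstream of Tmem198, so Chpf and Tmem198 were assigned the same 2 peaks and have identical values per gene. CUT&Tag reads carry no strand, so these reads cannot be credited to Chpf or to Tmem198.

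**Figure D1:**
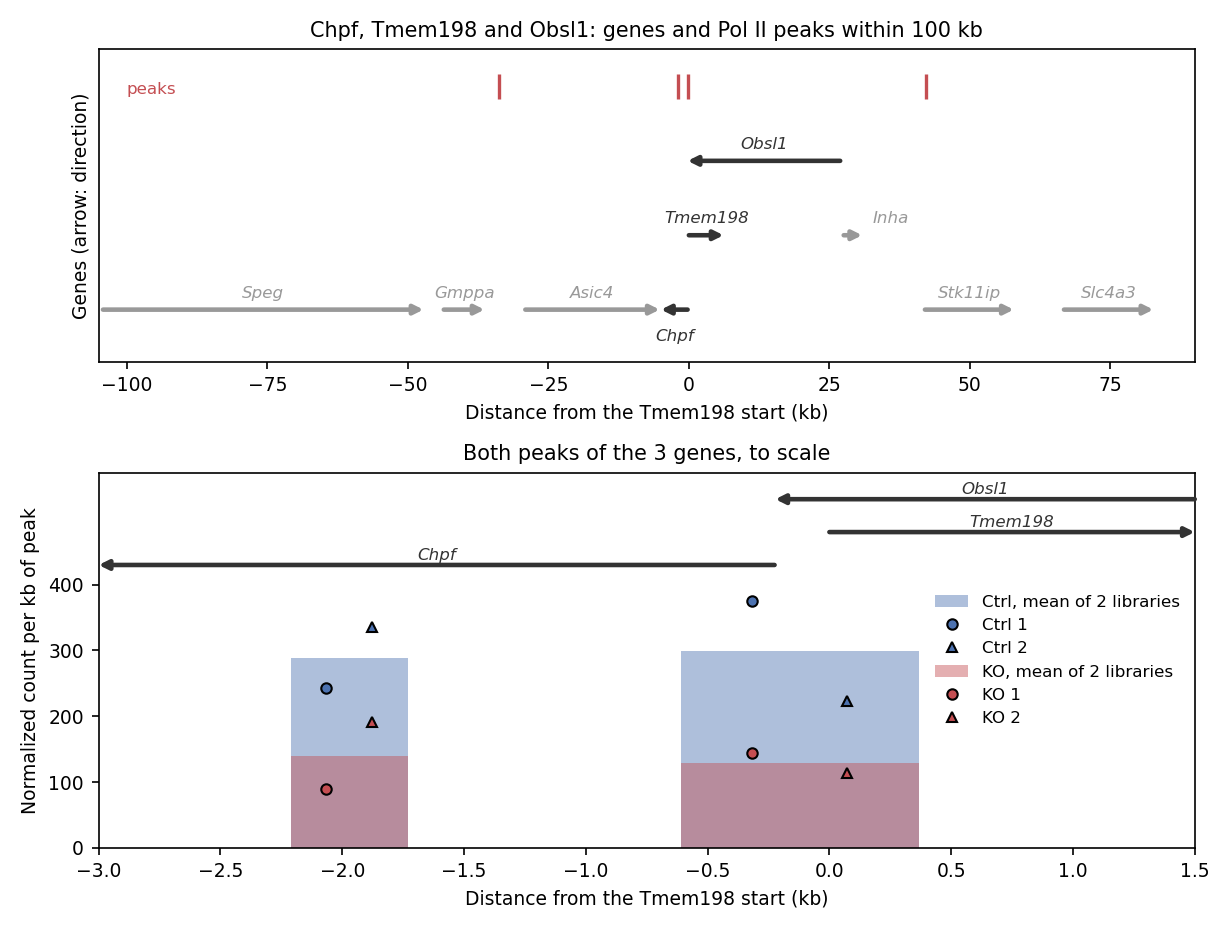
The upper panel maps Chpf, Tmem198 and Obsl1 (black), the 6 protein-coding neighbours (grey) and the 4 peaks (red ticks) by distance from the Tmem198 start in kb, and shows that no peak stood at the Obsl1 start. The lower panel plots both peaks at their true width, with normalized counts per kb of peak on the y axis (shaded, mean of 2 libraries; points, single libraries): the shaded Ctrl levels were 289 and 299 and the KO levels 140 and 129.

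The assignment of the shared peak to Obsl1 rested on 1 of its 13 GENCODE transcripts, a retained-intron transcript whose last exon covered 62 bp of the peak. The 4 protein-coding transcripts of Obsl1 ended 5.93 kb short of it, as did the RefSeq gene. No peak lay within 3 kb of the Obsl1 start, and the edge of the nearest one, at Stk11ip, was 14.8 kb away. By comparison, 10981 of 21924 protein-coding genes (50.1%) had a peak within 3 kb of a start. The shared promoter is thus that of Chpf and Tmem198, and the Obsl1 values below are those of the same peak at the far end of the gene. With gene bodies drawn from protein-coding transcripts only, an alternative chosen after the data were seen, Obsl1 had no peak.

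Pol II at the shared promoter peak was lower in both KO libraries than in both Ctrl libraries. Ctrl 1 had 367 normalized counts (reads divided by the size factor of the library, 95% Poisson interval 336 to 401) and Ctrl 2 had 218 (185 to 254), whereas KO 1 had 141 (124 to 161) and KO 2 had 111 (85.4 to 141). These intervals cover counting error only. The genotypes did not overlap, and the higher KO library stood at 65.0% of the lower Ctrl library, although the Ctrl libraries differed from each other by 1.69 times. The Ctrl mean was 292 ± 106 and the KO mean 126 ± 21.7 (SD, n = 2), and the log2 fold change was -1.21 ± 0.31 (SE). KO 1 was 38.5% of Ctrl 1, and KO 2 was 50.9% of Ctrl 2. Without Ctrl 1, the deeper Ctrl library and the highest of all, the log2 fold change was -0.77. Since the nuclei were measured in bulk, fewer cells with Pol II here and less Pol II per cell cannot be told apart. The paper reported lower percentages of ST2-positive and of GATA3-positive cells among splenic Treg cells of KO mice given IL-2c. The part of this in the peak was not tested.

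The Chpf exon peak was also lower in both KO libraries. Ctrl 1 and Ctrl 2 had 116 (99.2 to 136) and 161 (133 to 193) normalized counts, and KO 1 and KO 2 had 42.8 (33.5 to 53.9) and 92.0 (69.1 to 120). The genotypes again did not overlap, and the higher KO library stood at 79.0% of the lower Ctrl library. The Ctrl mean was 139 ± 31.6 and the KO mean 67.4 ± 34.8 (SD, n = 2), with a log2 fold change of -1.09 ± 0.41 (SE). The counting intervals of Ctrl 1 and KO 2 overlapped. Without KO 1 the log2 fold change was -0.59, and without KO 2 it was -1.68, so the size at this peak depended on which KO library was kept.

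**Figure D2:**
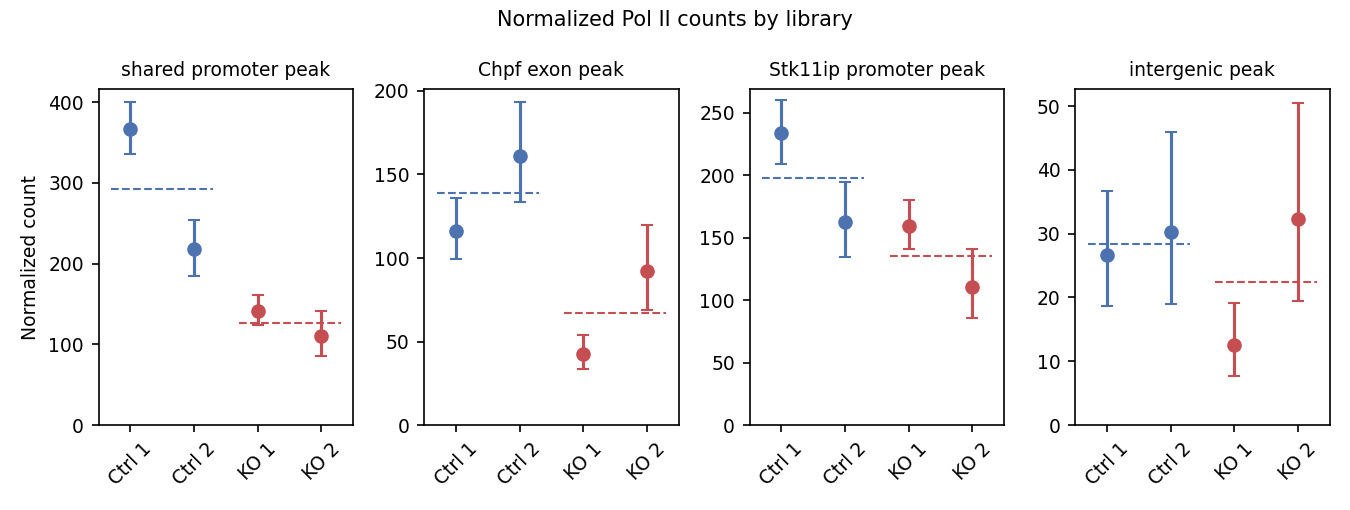
Normalized Pol II counts (y axis) at the 4 peaks within 100 kb, by library (x axis), with 95% Poisson intervals for counting error as bars and the group means as dashed lines. At the shared promoter peak the Ctrl libraries were at 367 and 218 and the KO libraries at 141 and 111, whereas at the intergenic peak the genotypes overlapped.

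Across all 56615 peaks, the KO pair lay entirely below the Ctrl pair at 9129 peaks (16.1%). Both peaks of the locus were of this kind, in genes selected for lower Pol II in KO at their shared promoter. No peak passed an adjusted p-value of 0.05 by the DESeq2 Wald test with Benjamini-Hochberg adjustment (0 of 56615, 0%), while 864 peaks passed 0.05 before adjustment. The edgeR quasi-likelihood test on the same counts called 27 peaks after adjustment. The study, also with DESeq2, reported peaks with significantly changed Pol II, and its methods state no threshold for that call.

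**Figure D3:**
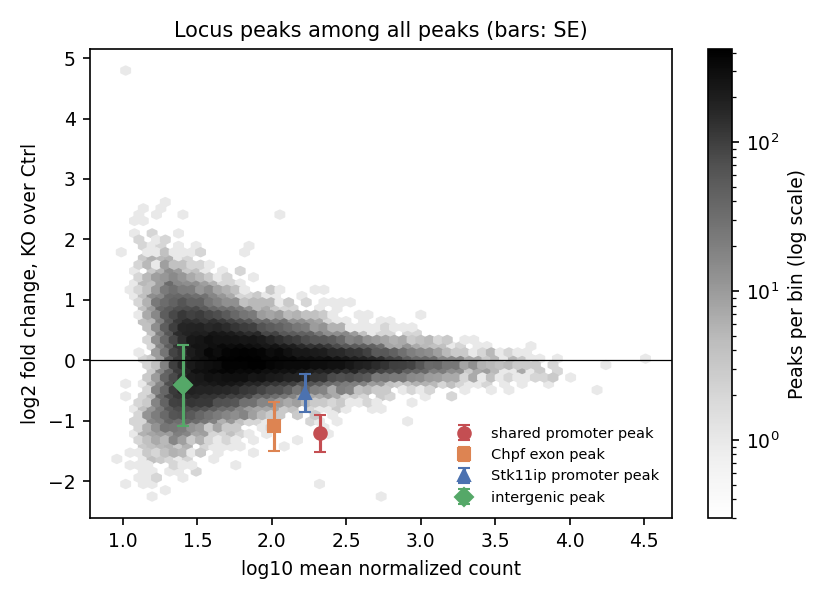
KO over Ctrl log2 fold change (y axis) against the log10 mean normalized count (x axis) for all peaks, shaded by number of peaks per bin on a log scale, with the 4 peaks within 100 kb in colour and their SE as bars. The shared promoter peak (-1.21) and the Chpf exon peak (-1.09) sat at the lower edge of the cloud at their count level, as peaks chosen for low KO values would.

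Summed over both peaks, Chpf and Tmem198 had 472 and 383 normalized counts in the Ctrl libraries and 183 and 206 in the KO libraries, by library number. The sums were closer between libraries of a genotype than either peak alone, since Ctrl 1 was higher than Ctrl 2 at the shared promoter peak and lower at the exon peak. The Ctrl mean was 428 ± 63.3, the KO mean 195 ± 16.2 (SD, n = 2), the log2 fold change was -1.15 ± 0.22 (SE), and the KO mean was 45.5% of the Ctrl mean. Obsl1, on the shared peak alone, had 359 and 220 in the Ctrl libraries and 141 and 113 in the KO libraries, with a log2 fold change of -1.19 ± 0.29 that became -0.78 without Ctrl 1. In all 3 genes both KO values were below both Ctrl values, as in 2187 of 12947 genes (16.9%). After adjustment over all genes, DESeq2 called 11 genes lower in KO (0.085%), and 3 of these were Chpf, Tmem198 and Obsl1, which were picked on this contrast and rest on the same reads. No gene of the 3 was called by edgeR, or by DESeq2 when any 1 library was left out.

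Per kb of peak, the shared promoter peak had 299 normalized counts in Ctrl, at the 96.3 percentile of all peaks and the 91.8 percentile of the 19150 promoter peaks. In KO it had 129. The exon peak had 289 per kb in Ctrl and 140 in KO. These means hide opposite libraries, since the density of the shared promoter peak over that of the exon peak was 1.55 in Ctrl 1 and 1.62 in KO 1, but 0.663 in Ctrl 2 and 0.591 in KO 2.

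How the reads divided between the 2 peaks differed by library number rather than by genotype. Of the reads of both peaks, the shared promoter peak held 75.9% in Ctrl 1 (95% Wilson interval 72.6 to 79.0) and 76.8% in KO 1 (71.8 to 81.1). It held 57.5% in Ctrl 2 (51.5 to 63.2) and 54.6% in KO 2 (45.7 to 63.3). The mean share was 66.7% in Ctrl and 65.7% in KO, compared with 76.4% in the libraries numbered 1 and 56.0% in those numbered 2. The intervals of the libraries numbered 1 did not overlap those of the libraries numbered 2. The ratio of Ctrl 1 to Ctrl 2 was 1.69 at the shared promoter peak (93.2 percentile of all peaks) and 0.722 at the exon peak (18.4 percentile). That of KO 1 to KO 2 was 1.28 (76.9 percentile) and 0.465 (3.37 percentile). Over the series, promoter peaks held 48.4%, 46.5%, 48.0% and 46.1% of all counts in Ctrl 1, Ctrl 2, KO 1 and KO 2, a smaller difference in which the libraries numbered 1 were again higher. The libraries numbered 1 were the deeper ones in both genotypes. The part of depth in the split was not tested.

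**Figure D4:**
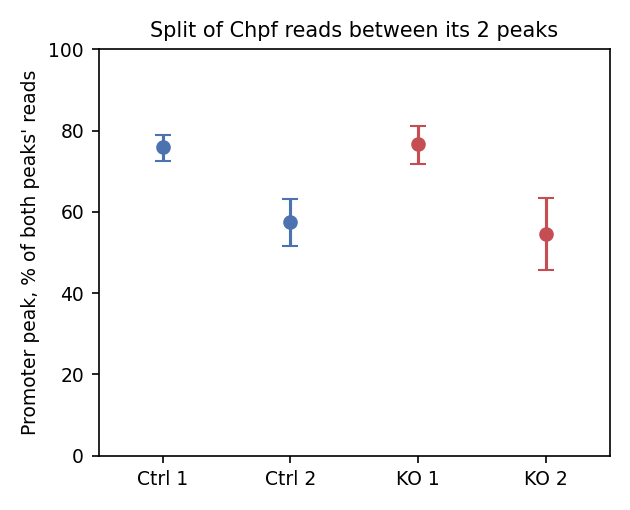
Share of the reads of both peaks that fell in the shared promoter peak (y axis, percent), by library (x axis), with 95% Wilson intervals for counting error. Ctrl 1 (75.9%) and KO 1 (76.8%) sat together above Ctrl 2 (57.5%) and KO 2 (54.6%).

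Among peaks of the same layout, a low KO value of this size was rare. There were 578 peaks that held both starts of a divergent protein-coding pair, the peak of Chpf and Tmem198 included. Their median log2 fold change was -0.07, against -0.02 over all promoter peaks. The 5th and 95th percentiles were -0.37 and 0.24, and 1 of the 578 was lower than the shared promoter peak, at -1.27. Both KO libraries were below both Ctrl libraries at 140 of the 578 peaks (24.2%), against 16.6% of all promoter peaks, and above both at 51 (8.82%), against 15% of all promoter peaks. In Ctrl level per kb the shared promoter peak was at the 72.5 percentile of these peaks. Their median was 229.7, against 136.9 for all promoter peaks, so the shares above compare peaks of unlike level. The part of level in those shares was not tested. The place of the shared peak in this ranking follows from its selection and is given as a description.

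Few peaks were found around the locus, which does not mean that Pol II was absent between them. From 100 kb before Chpf to 100 kb beyond Obsl1, a window of 231.9 kb, there were 4 peaks, including the 2 described. The window touched 8 further genes, of which 6 were protein-coding (Speg, Gmppa, Asic4, Inha, Stk11ip and Slc4a3), and Stk11ip was the only one of the 8 with a peak. The distances from gene start to the nearest peak were 57.1 kb for Speg, 9.75 kb for Gmppa, 4.49 kb for Asic4, 14.2 kb for Inha and 24.0 kb for Slc4a3. Speg encodes a muscle kinase related to the obscurin family, Asic4 an acid-sensing ion channel subunit and Inha the inhibin alpha subunit.

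Stk11ip, which encodes a protein that binds the kinase Lkb1, was not chosen on its values. Its promoter peak at chr1:75521264-75522242 had 234 and 163 normalized counts in the Ctrl libraries and 160 and 111 in the KO libraries. Both KO libraries were below both Ctrl libraries, but by little, the higher KO library standing at 98.3% of the lower Ctrl library. The log2 fold change of the peak was -0.54 ± 0.32 (SE), with an unadjusted p-value of 0.0902 and an adjusted p-value of 1.00 (DESeq2). Summed per gene it was -0.52 ± 0.30, with an unadjusted p-value of 0.0811. Leaving out 1 library moved it from -0.26 without Ctrl 1 and -0.31 without KO 2 to -0.81 without KO 1, and moved the peak from -0.24 without Ctrl 1 to -0.85 without KO 1. The edgeR unadjusted p-value for Stk11ip was 0.0486, and no adjusted value passed, so a lower level in KO was not established for this neighbour. The intergenic peak at chr1:75445677-75445949 had 26.6, 30.3, 12.5 and 32.4 normalized counts in Ctrl 1, Ctrl 2, KO 1 and KO 2, and the genotypes overlapped. Its log2 fold change was -0.41 ± 0.67, with an unadjusted p-value of 0.536.

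Among the other genes of the pathways of Chpf, Tmem198 and Obsl1, none was called after adjustment in the fits on genotype alone, and the list medians lay between -0.09 and 0.06. At an unadjusted p-value under 0.05 stood 373 of the 12947 genes (2.88%) with DESeq2 and 627 (4.84%) with edgeR, and the median log2 fold change over all genes was -0.0044. Of 33 further genes of glycosaminoglycan synthesis with a peak, none passed the adjusted threshold by DESeq2 or edgeR in those fits, and the unadjusted threshold was passed by 1 gene with DESeq2 and 3 with edgeR. The KO pair was below the Ctrl pair at 3 of the 33 genes (9.09%) and above it at 9 (27.3%), against 16.9% and 17.4% of all genes. The median log2 fold change of the list was 0.06, and the range ran from -0.42 at Ext2, a heparan sulfate polymerase, to 0.50 at Pxylp1, a phosphatase of the linker xylose. The gene past the unadjusted threshold was Slc35b3, a Golgi transporter of the sulfate donor. It had 446 and 387 normalized counts in Ctrl 1 and Ctrl 2 and 569 and 554 in KO 1 and KO 2, so both KO values were higher. Its log2 fold change was 0.43 ± 0.18 (SE), with an unadjusted p-value of 0.0196 and an adjusted p-value of 1.00.

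The enzymes that act beside Chpf on the chondroitin chain are named for their role, a choice made after their values were seen. Chpf2, its paralog, had 171 and 187 normalized counts in Ctrl and 185 and 223 in KO, with a log2 fold change of 0.18 ± 0.26 (SE). Chsy1, a chondroitin synthase, had 81.4 and 89.1 in Ctrl and 78.5 and 109 in KO, with 0.12 ± 0.36. Csgalnact2, which starts the chain, had 89.8 and 86.3 in Ctrl and 107 and 116 in KO, with 0.33 ± 0.33. None of the 3 was past the unadjusted threshold. Chpf2 and Chsy1 overlapped between genotypes, and Csgalnact2 was higher in both KO libraries, as were 17.4% of all genes. Chsy3 and Csgalnact1, listed with them, had no peak.

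Of 26 further genes of Wnt signalling, none passed the adjusted threshold by either tool, and the unadjusted threshold was passed by 1 gene with DESeq2 and 2 with edgeR (2.88% and 4.84% of all genes). Their median log2 fold change was -0.04, with a range from -0.27 at Rnf43, a ligase that removes Wnt receptors, to 0.37 at Lrp6. The gene past the unadjusted threshold was Csnk1d, which encodes casein kinase 1 delta. It had 1177 and 1150 normalized counts in Ctrl and 1375 and 1558 in KO, with a log2 fold change of 0.33 ± 0.14 (SE), an unadjusted p-value of 0.0205 and an adjusted p-value of 1.00. The KO pair was below the Ctrl pair at 4 of the 26 genes (15.4%) and above it at 3 (11.5%), against 16.9% and 17.4% of all genes.

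Of 9 further genes of the 3M complex, the Cullin 7 ligase and the obscurin family, none passed the adjusted or the unadjusted threshold by DESeq2 or edgeR. Their median log2 fold change was -0.09, with a range from -0.30 at Fbxw8, the substrate receptor of Cul7, to 0.22 at Cul7. The genes with the most Pol II per kb in Ctrl were Rbx1, the RING subunit of cullin ligases (0.05 ± 0.23), Cand1, which exchanges their substrate receptors (-0.07 ± 0.15), and Ube2m, which attaches Nedd8 to cullins (-0.09 ± 0.20). Both KO libraries were below both Ctrl libraries at 3 of the 9 genes (33.3%) and above both at 1 (11.1%), against 16.9% and 17.4% of all genes.

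**Figure D5:**
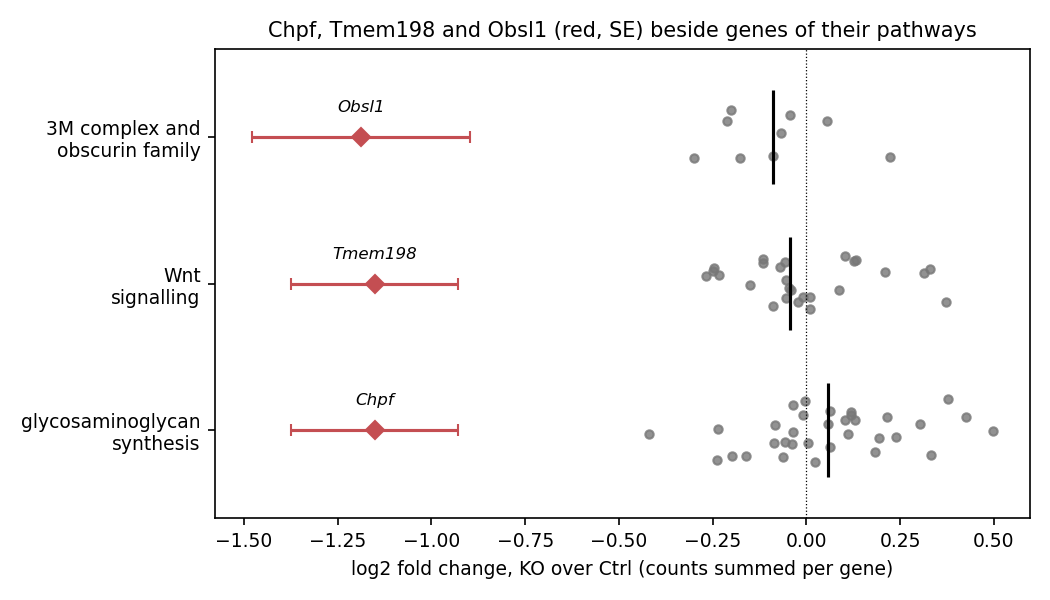
KO over Ctrl log2 fold change for counts summed per gene (x axis), for Chpf, Tmem198 and Obsl1 (red, with SE; Chpf and Tmem198 have the same reads) and for the 33, 26 and 9 other genes of their lists (grey points, spread vertically for legibility; black line, median). The other genes lay between -0.42 and 0.50.

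The promoter peaks most like the shared peak across the 4 libraries were found by distance between centred log2 normalized counts, over 12949 promoter peaks with a mean of at least 50 counts. The distance includes the genotype difference that selected the locus, so the likeness is a description. The nearest was the peak of Slc30a3, a zinc transporter, at a distance of 0.09 against a median of 1.28. It had normalized counts of 142, 88.2, 59.4 and 44.3 in Ctrl 1, Ctrl 2, KO 1 and KO 2, the same order of libraries as the shared peak. Next came a peak of Hspa1a and Hspa1l and another at Hspa1a that is also assigned to Gm20481 (0.27 and 0.33). Hspa1a encodes the inducible heat shock protein Hsp70. The peak of Il1rl1, the gene of the ST2 receptor for IL-33, was at 0.34 with counts of 76.2, 57.9, 37.4 and 30.7, and that of Mpp7, a membrane scaffold protein, at 0.35. The log2 fold changes of the 5 peaks ran from -1.14 to -0.95. The Chpf exon peak, at a distance of 1.33, was at the 59.3 percentile, so the 2 peaks of Chpf were no more alike across libraries than most promoter peaks were to the shared one.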

How the data were processed

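Pol II CUT&Tag libraries of 2 Ctrl and 2 KO samples were analysed, and the IgG library is not analysed here. The deposited table holds raw read counts per merged peak. The authors mapped reads to mm10 with Bowtie2, kept unique reads without duplicates, called peaks with MACS2 against IgG and merged and counted them with bedtools, so peaks were defined on the libraries compared. No column was without a sample. Peaks were assigned by midpoint to GENCODE vM21 genes (body and 3 kb upstream), protein-coding genes first. KO and Ctrl were compared with DESeq2 1.42.0 (R 4.3.3, Wald test, two-sided, genotype only, Benjamini-Hochberg, 0.05), the tool of the study, on all peaks and on counts summed per gene. edgeR 4.0.16 was an alternative. Size factors of the peak table were 1.39, 0.726, 1.68 and 0.587 for Ctrl 1, Ctrl 2, KO 1 and KO 2. The fits were tested on simulated data with larger changes than at this locus and the same assumed variation for every peak. That test does not show how they perform at changes of the size seen here. Sequences are from RefSeq (GRCm38), with a window for all 3 genes.

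The genes, lists, markers and motifs were chosen with earlier results of these data known. Named list genes had an unadjusted p-value under 0.05 or else were the 3 with the most Pol II per kb in Ctrl, besides the extremes of each list and the enzymes beside Chpf. The 5 promoter peaks nearest to the shared peak were also named. Of the list names, 41 of 42, 35 of 35 and 16 of 17 were found in the annotation.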

Additional observations from a re-analysis of the deposited data

How the results depend on the processing

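The log2 fold changes of Chpf and Tmem198 were between -1.29 and -0.98 when each library was left out in turn, and that of Obsl1 between -1.49 and -0.78. Those of the shared promoter peak were between -1.53 and -0.77, and those of the Chpf exon peak between -1.68 and -0.59. The intergenic peak ran from -1.18 to 0.19 and was positive without KO 1. Rbx1 ran from -0.22 without Ctrl 2 to 0.42 without Ctrl 1, and was also negative without KO 1 (-0.14), and Ube2m ran up to 0.072 without Ctrl 1. The cause was not tested.

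Calls after adjustment moved more than the values. DESeq2 called 0 peaks and 13 genes, whereas edgeR called 27 peaks and 0 genes (627 genes at an unadjusted p-value under 0.05). With a library left out, DESeq2 called 0 to 5 peaks (5 without Ctrl 2, 3 without KO 2) and 0 to 3 genes (0 without Ctrl 1 or KO 1, 2 without Ctrl 2, 3 without KO 2). A lone library of a genotype was then assumed to vary like the other pair. A window of 1 kb upstream gave 13 genes and total-count scaling 14. Bodies from protein-coding transcripts, chosen after the data were seen, gave 12 of 12929. With the replicate number as a block, DESeq2 called 25 peaks, 116 genes and 1 listed pathway gene (Slc35b2), but independent filtering then left 83.4% of genes, the 3 of the locus included, and 73.7% of peaks without an adjusted p-value. The labels do not say that the numbers pair libraries. Deviations of same-numbered libraries correlated at 0.233 across peaks, and the log2 fold changes with the block were -1.15 for Chpf and -1.18 for Obsl1. Counts of 65 to 511 per library at the shared peak limit the precision, and the 2 libraries per genotype limit it more.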
